A study of Mus musculus with 6 samples.

Results

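The transcripts described here encode the subunits of the mitochondrial respiratory chain and of ATP synthase, measured by bulk RNA-seq in the mucosa of the gastric antrum of mice. Members were the protein-coding rows of the deposited counts table whose symbols begin with the usual names of these subunits, without the assembly factors named Ndufaf. This gave 98 of 34866 rows, of which 13 are encoded in the mitochondrial genome (names beginning mt-) and 85 in the nucleus. The 2 groups were 3 libraries from Muc6 -/- mice, which lack a secreted mucin of deep antral gland cells, and 3 from Muc6 +/+ mice, called knockout 1 to 3 and wild type 1 to 3 here. The series asks how Muc6 relates to gastric carcinogenesis. The labels give neither strain, age nor sex, nor how the allele was made, and they do not say whether each library came from an animal of its own, so each p-value reflects library-to-library spread alone, which may be technical.

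The respiratory chain passes electrons from NADH and succinate through complexes I to IV to oxygen and pumps protons across the inner mitochondrial membrane, and complex V (ATP synthase) uses that gradient to make ATP. The mitochondrial genome encodes a few hydrophobic core subunits of complexes I, III, IV and V, transcribed as long precursors inside the organelle. All other subunits, complex II entirely, are encoded in the nucleus and imported. In the stomach the chain is best known from the acid-secreting parietal cells, which are packed with mitochondria, and the antrum normally holds few of them.

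Members are given as CPM, counts per 1e6 of the library size after scaling for composition with TMM factors, and changes on a log2 scale, knockout relative to wild type, each with a standard error (SE). A member was called higher or lower at an adjusted p below 0.05 in the edgeR quasi-likelihood test, with Benjamini-Hochberg adjustment over the 14017 genes tested, and values after ± are SD over 3 libraries. Total estimated counts were 19839800 to 20673700 in knockout libraries and 19942400 to 21354000 in wild-type libraries. Muc6 had 0 to 0.0425 CPM in knockout libraries and 396 to 510 CPM in wild-type libraries. The Y-linked gene Ddx3y averaged 40.5 ± 1.06 CPM in knockout and 0.165 ± 0.142 CPM in wild-type libraries, so sex coincided with genotype and their effects cannot be told apart. Markers of other cell types moved with genotype: the summed level of 6 pit cell markers was 37245 to 47764 CPM in knockout and 157430 to 181859 CPM in wild type, and that of the parietal cell markers 76.0 to 119 CPM in knockout and 153, 469 and 565 CPM in wild type 1 to 3. Sums of chief and hormone cell markers were lower in the knockout without overlap as well, while those of antral gland mucous cells (13252 to 18293 CPM in knockout, 5420 to 7434 CPM in wild type), squamous epithelium (150 to 167 CPM in knockout, 4.52 to 9.29 CPM in wild type) and immune cells (108 to 180 CPM in knockout, 9.83 to 64.9 CPM in wild type) were higher. Muc6 itself is 1 of the 5 antral gland mucous cell markers and the only one lower, while the other 4 were higher. In such bulk samples fewer cells of a type and less RNA per cell cannot be told apart, and the part of these shifts in the results below was not tested. Counts of members called are also given without knockout 1 and wild type 1, in which several marker sums were furthest from those of the other libraries of their genotype.

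The promoters of 4 nuclear members are shown because subunits of the chain are known to share binding sequences of NRF1, ETS-family factors (GABP) and YY1, and because 2 of these genes fell in the knockout and the other 2 did not pass the test. Each window holds 300 bases, 250 before to 50 after the start, from RefSeq on GRCm38.p6, written 5′ to 3′ on the strand of the gene with the motif matches in capitals. The Ndufa5 window (chr6:24527641-24527940, minus strand) holds an NRF1 match and the Atp5j2 window (chr5:145191492-145191791, minus strand) a YY1 match.
Ndufa5: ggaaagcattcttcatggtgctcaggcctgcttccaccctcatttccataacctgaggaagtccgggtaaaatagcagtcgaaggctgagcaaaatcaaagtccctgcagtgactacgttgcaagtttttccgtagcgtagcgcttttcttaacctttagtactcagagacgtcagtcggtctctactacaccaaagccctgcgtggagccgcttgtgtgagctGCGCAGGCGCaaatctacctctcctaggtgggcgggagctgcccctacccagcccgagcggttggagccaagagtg
Atp5j2: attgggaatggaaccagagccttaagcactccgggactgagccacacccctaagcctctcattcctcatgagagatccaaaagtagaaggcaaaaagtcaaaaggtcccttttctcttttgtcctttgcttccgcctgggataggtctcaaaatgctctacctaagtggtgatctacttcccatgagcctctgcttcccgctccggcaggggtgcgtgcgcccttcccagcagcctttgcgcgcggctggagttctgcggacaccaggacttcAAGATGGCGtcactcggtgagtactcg
The Sdha window (chr13:74350191-74350490, minus strand) holds 3 NRF1 matches and the Atp5b window (chr10:128083057-128083356, plus strand) a YY1 match.
Sdha: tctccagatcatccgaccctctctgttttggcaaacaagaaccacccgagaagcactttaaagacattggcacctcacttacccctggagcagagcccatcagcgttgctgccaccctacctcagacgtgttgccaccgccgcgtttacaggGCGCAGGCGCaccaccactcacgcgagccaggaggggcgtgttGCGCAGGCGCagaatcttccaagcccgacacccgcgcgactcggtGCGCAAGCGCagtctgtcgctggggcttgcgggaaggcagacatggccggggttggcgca
Atp5b: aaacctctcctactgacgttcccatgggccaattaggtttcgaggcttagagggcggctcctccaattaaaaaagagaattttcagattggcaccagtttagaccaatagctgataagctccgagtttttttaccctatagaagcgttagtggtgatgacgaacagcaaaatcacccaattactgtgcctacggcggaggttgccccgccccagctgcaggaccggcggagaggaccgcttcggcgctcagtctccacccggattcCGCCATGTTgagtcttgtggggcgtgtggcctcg
The letters searched on both strands were GCGC, then any base, then TGCGC for NRF1, CCGGAAG for ETS factors and AANATGGCG for YY1, and in the windows shown the matches of Ndufa5, Sdha and Atp5b read as the reverse complement of these letters. In all, 69 of the 85 nuclear members had a window. NRF1 matches lay in 23.2% of these windows, against 4.6% of all 32851 windows in the table. ETS matches lay in 21.7% of members' windows and 8.86% of all windows, and YY1 matches in 11.6% and 2.38%. Among members that fell in the knockout, 8 of 33 windows held an NRF1 match, 7 an ETS match and 4 a YY1 match, and among those that did not pass the test the numbers were 8, 8 and 4 of 33. Both sets of members therefore held these letters at similar counts, which describes the windows only.

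In the main test, with TMM factors, transcripts of the chain were lower in the knockout for both genomes. Of the 92 members that could be tested, 50 were lower, 1 was higher and 41 did not pass, while 38.4% of all genes tested were called, 19.3% higher and 19.2% lower. The median log2 fold change was -0.65 over all members, -0.81 over the 13 mitochondrially encoded ones and -0.60 over the 79 nuclear ones tested, beside 0.02 over all genes. By genome, 9 of 13 mitochondrially encoded members were lower and none higher, and 41 of 79 nuclear members were lower and 1 higher. The knockout and wild-type libraries did not overlap for 9 mitochondrial and 46 nuclear members, and over all genes tested this held for 54.8%. The fall of the mitochondrially encoded members depended on the processing. Once a trend with transcript GC content was taken out of every library, 3 of them were lower and 1 higher. Their median was then -0.19, beside -0.60 for nuclear members, while 16.5% of all genes were lower and 18% higher. The 6 members not tested had too few counts: Cox6a2, Cox7b2 and Cox8c had none in any library, and Ndufa4l2, Cox4i2 and Cox8b stayed below 1 CPM.

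**Figure D1:**
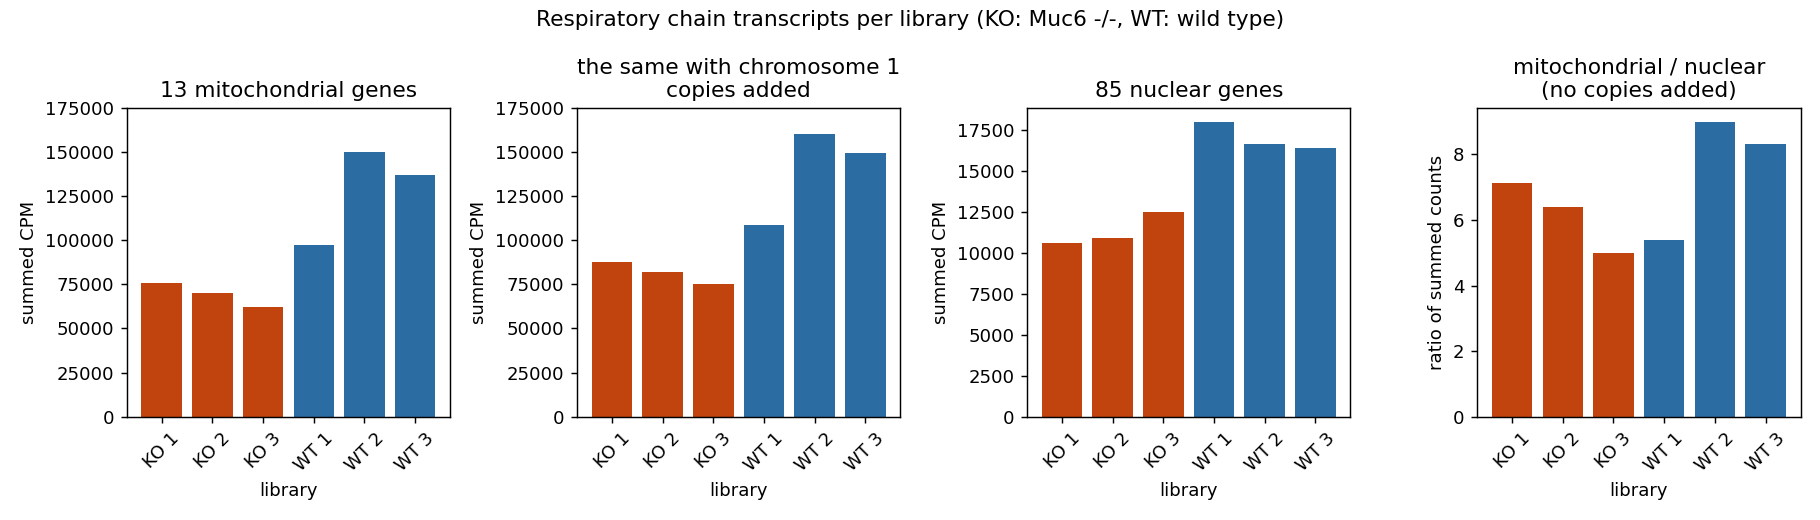
Summed level of the 13 mitochondrially encoded genes (CPM), the same with counts of near-identical chromosome 1 rows added, summed level of the 85 nuclear members (CPM) and ratio of mitochondrial to nuclear counts in each library; bars are single libraries, orange for knockout and blue for wild type. All 3 knockout bars lie below all wild-type bars in the first 3 panels, while the ratios of the genotypes overlap.

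Summed over the 13 mitochondrial genes the level was 75461, 69813 and 62350 CPM in knockout 1 to 3, against 97054, 149882 and 136584 CPM in wild type 1 to 3. The mean was 69208 ± 6576 CPM in knockout and 127840 ± 27478 CPM in wild type, a log2 difference of -0.89. Summed over the nuclear members the level was 10604, 10918 and 12517 CPM in knockout libraries, against 18001, 16690 and 16422 CPM in wild-type libraries, with means of 11347 ± 1026 and 17038 ± 845 CPM and a log2 difference of -0.59. The genotypes did not overlap in either sum. As shares of all counts, which no composition factor enters, they did: mitochondrial genes took 7.21% to 8.62% in knockout and 8.37% to 13.01% in wild type, and nuclear members 1.21% to 1.45% in knockout and 1.42% to 1.55% in wild type. The TMM factors that separate these readings were 1.14 to 1.17 in knockout and 0.862 to 0.868 in wild type, where the 20 most abundant genes held 29.2% to 31.2% of counts, against 17.8% to 18.7% in knockout.

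Over all 6 libraries, the difference between mitochondrial and nuclear members in how far they fell lay within the spread between libraries. The ratio of mitochondrial to nuclear counts was 7.12, 6.39 and 4.98 in knockout 1 to 3, against 5.39, 8.98 and 8.32 in wild type 1 to 3. The genotypes overlapped, with means of 6.16 ± 1.09 and 7.56 ± 1.91 and a log2 difference of -0.30. This value depended on single libraries: leaving out knockout 3 gave -0.16, leaving out wild type 1 gave -0.49 and leaving out wild type 2 gave -0.15. Without both libraries numbered 1 it was -0.60, and the ratios of the remaining libraries, 6.39 and 4.98 in knockout against 8.98 and 8.32 in wild type, did not overlap. Within single complexes the ratios overlapped as well. For complex I they averaged 6.42 ± 1.33 in knockout and 7.34 ± 1.87 in wild type, and for complex III 5.61 ± 1.04 in knockout and 5.70 ± 1.34 in wild type. For complex IV they averaged 16.9 ± 2.51 in knockout and 20.4 ± 4.92 in wild type, and for complex V 1.496 ± 0.356 in knockout and 2.07 ± 0.785 in wild type.

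Within a genotype, libraries high in the members of one genome were not those high in the other. Knockout 3 had the lowest level of all 13 mitochondrial genes among knockout libraries, and the highest level of 69 of 79 nuclear members. Wild type 1 had the lowest level of all 13 mitochondrial genes among wild-type libraries, and the highest level of 51 nuclear members, but also the lowest level of 21. Knockout 1 was the highest for 12 mitochondrial genes and the lowest for 53 nuclear members, so that the order was reversed between the genomes in knockout libraries, while in wild type the nuclear members had no such clear order. Marker sums varied between the same libraries, with smooth muscle markers at 73.1, 1006 and 696 CPM in knockout 1 to 3 and 210, 1513 and 3233 CPM in wild type 1 to 3, and their part in this order was not tested.

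**Figure D2:**
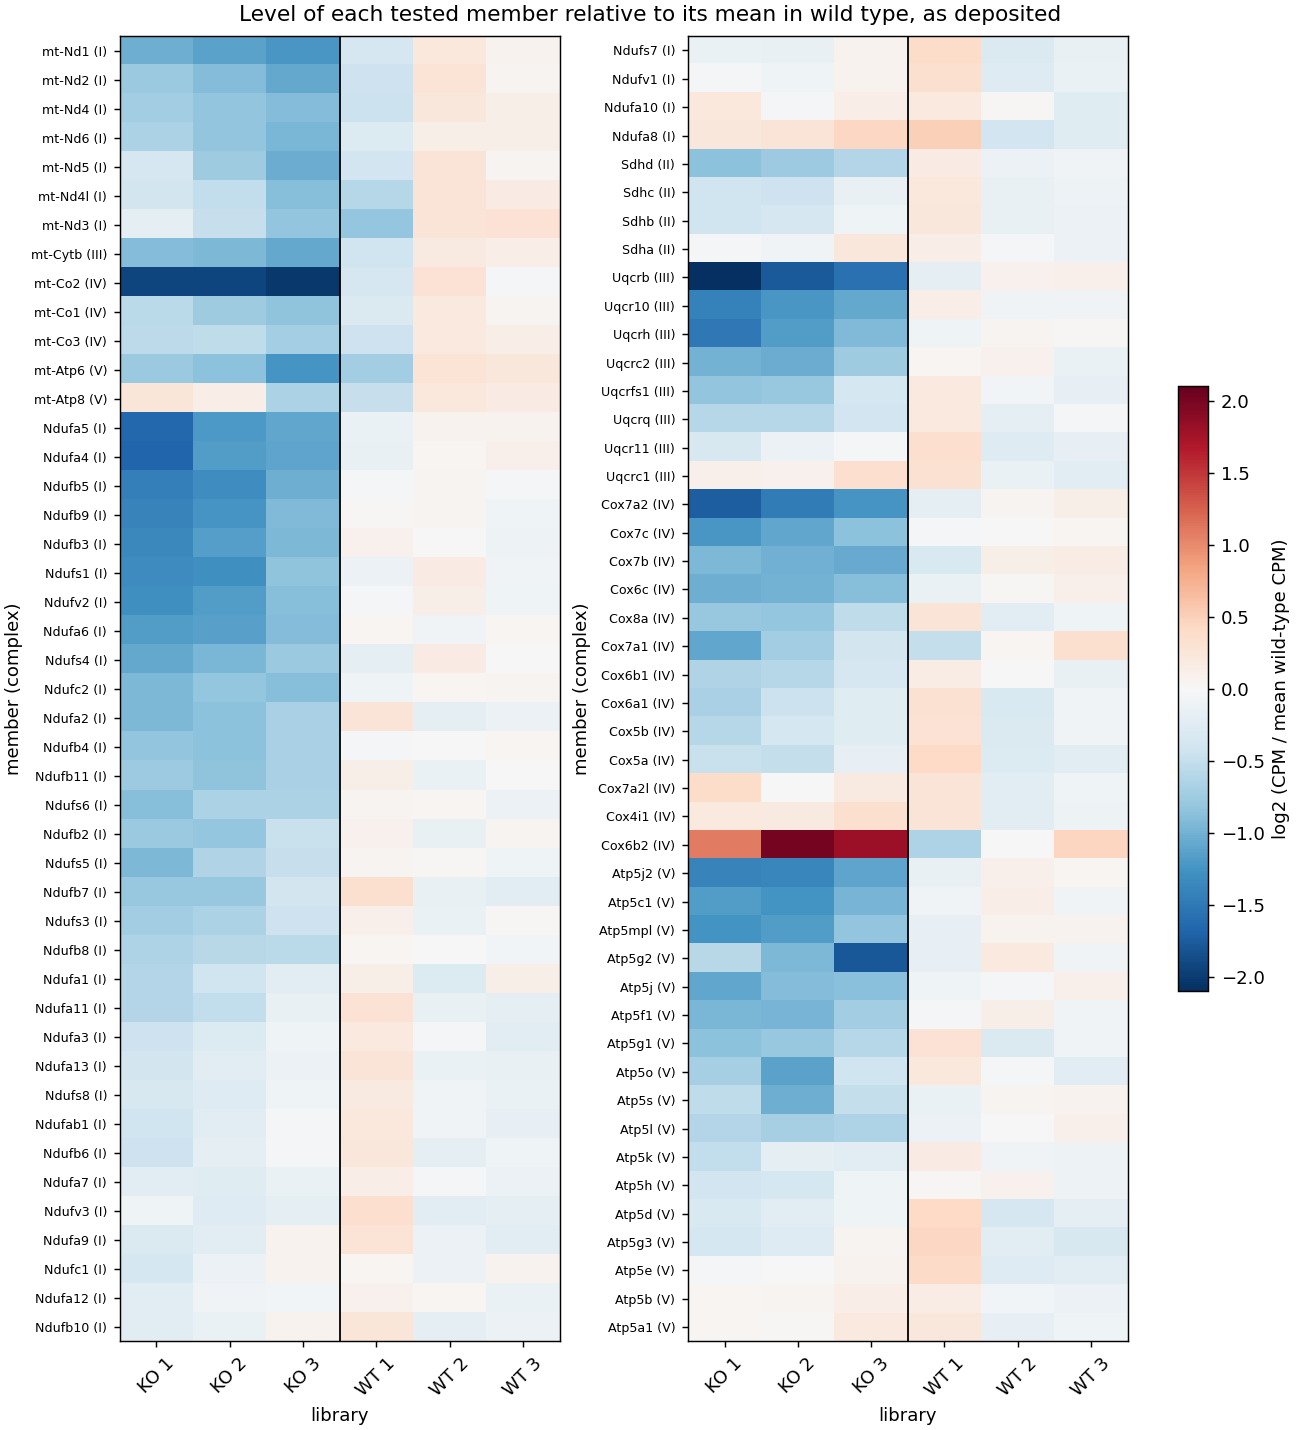
Level of the tested members, 1 of them not drawn, in each library as log2 of its CPM over its mean CPM in wild type, with blue for lower and red for higher, grouped by genome and complex and sorted by fold change within each. Knockout columns are blue for most members, the mitochondrial block is darkest in knockout 3, most nuclear rows are palest there, and Cox6b2 is the red row.

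Among the mitochondrially encoded members, the sequence of several is repeated on chromosome 1, and this bears on their counts before any comparison. Of 7 annotated pseudogenes on chr1:24611535-24616197 (GENCODE M21), each shared at least 97.2% of its 31-base words with a mitochondrial gene (the 7 are annotated as unprocessed pseudogenes, and those of mt-Nd4 and mt-Nd4l had no counts). Gm28661, which shares 100% of its words with mt-Co2, had 4883, 4842 and 5189 CPM in knockout 1 to 3, against 2067, 2088 and 4466 CPM in wild type 1 to 3. It held 55.6% to 58.9% of the counts of the pair in knockout and 10.3% to 23.6% in wild type. Gm10925, the copy of mt-Atp6, held 34.5% to 44.0% of its pair in knockout and 37.0%, 11.96% and 9.55% in wild type 1 to 3. The copy of mt-Co1, Gm29216, held 10.9% to 14.1% in knockout and 11.5% to 13.7% in wild type. Reads of identical copies cannot be assigned to either place from their sequence, so levels of mt-Co2 and mt-Atp6 are given both as deposited and with the copy added.

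mt-Co2 encodes the subunit of complex IV that takes up electrons from cytochrome c (chrM:7013-7696, plus strand). As deposited it had 3873, 3871 and 3627 CPM in knockout 1 to 3, against 11612, 18180 and 14446 CPM in wild type 1 to 3. Every knockout library was below every wild-type library, and the log2 fold change of -1.96 (SE 0.19, edgeR adjusted p = 0.000581) was the largest of any member. With Gm28661 added it had 8758, 8712 and 8816 CPM in knockout 1 to 3, against 13680, 20265 and 18914 CPM in wild type 1 to 3. The genotypes still did not overlap, and the log2 fold change was -1.01 (SE 0.18, edgeR adjusted p = 0.00441), close to those of mt-Nd1 and mt-Cytb. In wild type the pair made up 12.6%, 12.6% and 12.6% of mitochondrially encoded counts with copies added, while mt-Co2 as deposited made up 11.96%, 12.1% and 10.6% of the counts without them.

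The other complex IV genes fell less. mt-Co1, the catalytic subunit with the oxygen-binding centre, averaged 25706 ± 2522 CPM in knockout and 42257 ± 7268 CPM in wild type, with a log2 fold change of -0.72 (SE 0.19, edgeR adjusted p = 0.0202). With its copy added the value was also -0.72. mt-Co3 averaged 9045 ± 627 CPM in knockout and 13625 ± 3060 CPM in wild type, at -0.59 (SE 0.19, edgeR adjusted p = 0.0461).

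In complex I, 4 of the 7 mitochondrial genes were lower, beside 19.2% of all genes. mt-Nd1, a membrane subunit next to the quinone site, had 4665, 4361 and 4073 CPM in knockout 1 to 3, against 7470, 11084 and 9985 CPM in wild type 1 to 3. Its libraries did not overlap between genotypes, and its log2 fold change was -1.12 (SE 0.18, edgeR adjusted p = 0.00293). mt-Nd2, mt-Nd4 and mt-Nd6 also fell, by 0.92, 0.82 and 0.81 on the log2 scale. mt-Nd5 was at -0.68 with an edgeR adjusted p of 0.0504, and mt-Nd4l and mt-Nd3 at -0.58 and -0.48 did not pass either. The last named 3 overlapped between genotypes, with wild type 1 inside the range of the knockout libraries for each.

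mt-Cytb, the cytochrome b of complex III, averaged 6909 ± 429 CPM in knockout and 13594 ± 2939 CPM in wild type and had a log2 fold change of -0.98 (SE 0.19, edgeR adjusted p = 0.00674). The ATP synthase gene mt-Atp6, which encodes the subunit of the proton channel, had 6877, 6495 and 4966 CPM in knockout 1 to 3, against 7057, 14359 and 13817 CPM in wild type 1 to 3. Wild type 1 lay just above the knockout libraries, and the log2 fold change was -0.94 (SE 0.28, edgeR adjusted p = 0.0348). With Gm10925 added it was -0.54 (SE 0.18, edgeR adjusted p = 0.0473). mt-Atp8 did not pass the test: it had 433, 399 and 229 CPM in knockout 1 to 3, against 259, 423 and 406 CPM in wild type 1 to 3, with a log2 fold change of -0.04 (SE 0.28, edgeR adjusted p = 0.932). It overlaps mt-Atp6 by 43 bases on the same strand, so reads there may have been split between them.

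**Figure D3:**
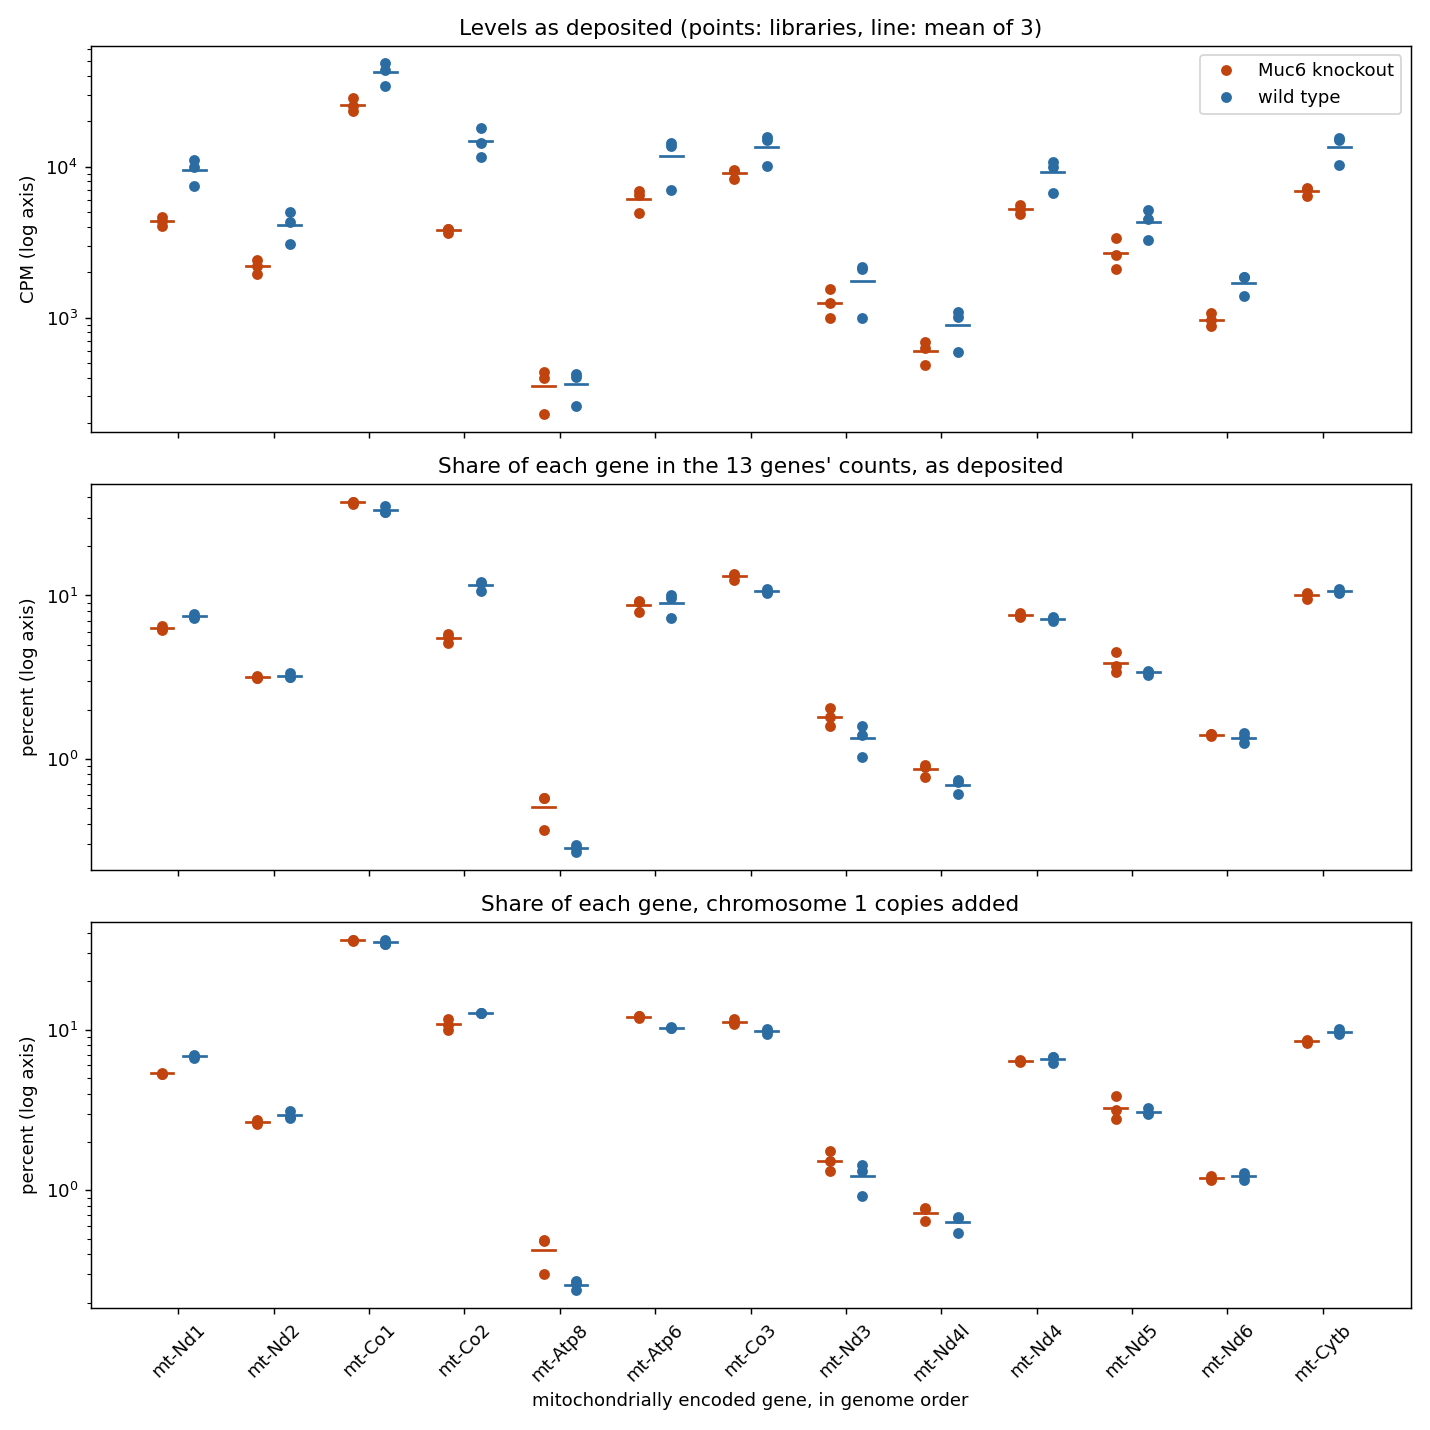
The 13 mitochondrially encoded genes in genome order, with CPM as deposited on a log axis (top), each gene's share of the 13 genes' counts as deposited (middle) and the same with chromosome 1 copies added (bottom); points are libraries, short lines means of 3, orange for knockout and blue for wild type. The gap in the share of mt-Co2, 5.498% in knockout and 11.6% in wild type as deposited, narrows to 10.8% and 12.6% with the copy added.

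Shares within the mitochondrial counts do not depend on the scaling of the libraries. With copies added, mt-Nd1 made up 5.31%, 5.33% and 5.40% in knockout 1 to 3 and 6.89%, 6.92% and 6.68% in wild type 1 to 3, without overlap. mt-Cytb and mt-Co2 had lower shares in the knockout as well, at 8.47% ± 0.227 and 10.8% ± 0.868, against 9.73% ± 0.306 and 12.6% ± 0.0134 in wild type. Shares of mt-Atp6, mt-Co3 and mt-Atp8 were higher in the knockout without overlap. mt-Atp6 took 12.01% ± 0.214 in knockout and 10.2% ± 0.0818 in wild type, and mt-Atp8 0.428% ± 0.108 in knockout and 0.258% ± 0.0171 in wild type. The copies decided several of these readings: as deposited, the shares of mt-Atp6 and mt-Nd2 overlapped between genotypes, while those of mt-Co1, mt-Nd3 and mt-Nd4l did not overlap but did with copies added. The shares were not tested.

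With copies added to all members that had one, 10 of 13 mitochondrial genes were lower, mt-Nd5 joining the 9, and their median was -0.72, while 19.2% of all genes were lower. The count of 9 depended on single libraries: it was 5 without knockout 2, without knockout 3, without wild type 2 or without wild type 3, 8 without knockout 1 and 12 without wild type 1. The number of all genes lower moved too, from 2687 with every library to 1721, 2022, 1742, 2022, 2265 and 2964 in these fits, in the same order. Without both libraries numbered 1 the count of mitochondrial genes lower was 12, at a median of -1.07, while 24.3% of all genes were lower.

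Per kilobase of transcript, all 13 mitochondrial genes were above every nuclear member. mt-Co1 was at the top with a mean level of 21995 CPM per kilobase over the 6 libraries, and mt-Atp8 was the lowest of them at 1755. The highest nuclear members were Uqcrh at 684, Uqcrb at 591, Atp5b at 562, Cox6c at 554 and Cox8a at 523 CPM per kilobase. Over single libraries Uqcrh, Uqcrb, Cox6c and Cox8a each spanned the mean of Atp5b, so the order of these 5 is not firm.

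The nuclear members of complex I held 19 lower and 18 not past the threshold among the 37 tested, with a median log2 fold change of -0.60, beside 19.2% of all genes lower. Ndufa5, a subunit of the peripheral arm, had 44.99, 61.1 and 66.5 CPM in knockout 1 to 3, against 128, 148 and 148 CPM in wild type 1 to 3. The genotypes were well apart, with a log2 fold change of -1.30 (SE 0.16, edgeR adjusted p = 0.00119). Ndufb5, of the membrane arm, had 64.2, 70.6 and 86.1 CPM in knockout libraries, against 170, 182 and 172 CPM in wild-type libraries, at -1.25 (SE 0.13, edgeR adjusted p = 0.000671). The accessory subunits Ndufa6, Ndufb3 and Ndufc2 fell as well, by 1.07, 1.14 and 0.88 on the log2 scale.

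The nuclear core subunits of complex I, most of which carry the flavin or iron-sulfur clusters, fell in part. Ndufv2 averaged 125 ± 17.8 CPM in knockout and 271 ± 21.6 CPM in wild type, at a log2 fold change of -1.11 (SE 0.13, edgeR adjusted p = 0.00103). Ndufs1 averaged 120 ± 23.0 CPM in knockout and 264 ± 30.1 CPM in wild type, at -1.13, and Ndufs3 was at -0.60. Ndufv1, Ndufs7 and Ndufs8 lay between -0.23 and -0.02 and did not pass. Ndufv1, which binds the flavin, had 88.0, 83.6 and 93.8 CPM in knockout 1 to 3, against 113, 74.4 and 80.8 CPM in wild type 1 to 3, where the knockout libraries lay inside the range of wild type. Subunits that sit side by side in the complex, such as Ndufv1 and Ndufv2, thus had unequal values, and the difference between them was not tested.

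Complex II, which also works in the citric acid cycle, has 4 subunits, of which 1 was lower, beside 19.2% of all genes, a count too small to set it apart from them. Sdhd, a membrane anchor, was the one lower: it had 185, 197 and 218 CPM in knockout 1 to 3, against 378, 310 and 319 CPM in wild type 1 to 3. Its log2 fold change was -0.74 (SE 0.12, edgeR adjusted p = 0.00338). Sdha, the flavoprotein, averaged 257 ± 31.4 CPM in knockout and 249 ± 24.5 CPM in wild type, and its value of 0.05 (SE 0.13) did not pass.

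Complex III, counted here by names beginning Uqcr only, had 6 of 8 such nuclear members lower, beside 19.2% of all genes. Their median was -0.78. Uqcrb, which binds ubiquinone, had 112, 145 and 167 CPM in knockout 1 to 3, against 424, 522 and 527 CPM in wild type 1 to 3. All knockout libraries were far below all wild-type ones, and the log2 fold change of -1.80 (SE 0.17, edgeR adjusted p = 0.000569) was the largest fall of a nuclear member. Uqcr10 averaged 127 ± 15.1 CPM in knockout and 299 ± 25.5 CPM in wild type, at -1.23. Uqcrh, the hinge protein that helps cytochrome c bind, averaged 229 ± 45.1 CPM in knockout and 520 ± 29.7 CPM in wild type, at -1.18. Uqcrfs1, the Rieske iron-sulfur protein, and Uqcrq had log2 fold changes of -0.65 and -0.53. The core proteins form a pair with unequal values: Uqcrc2 was at -0.92 (SE 0.12, edgeR adjusted p = 0.00153) and Uqcrc1 at 0.19 (SE 0.17, edgeR adjusted p = 0.409).

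**Figure D4:**
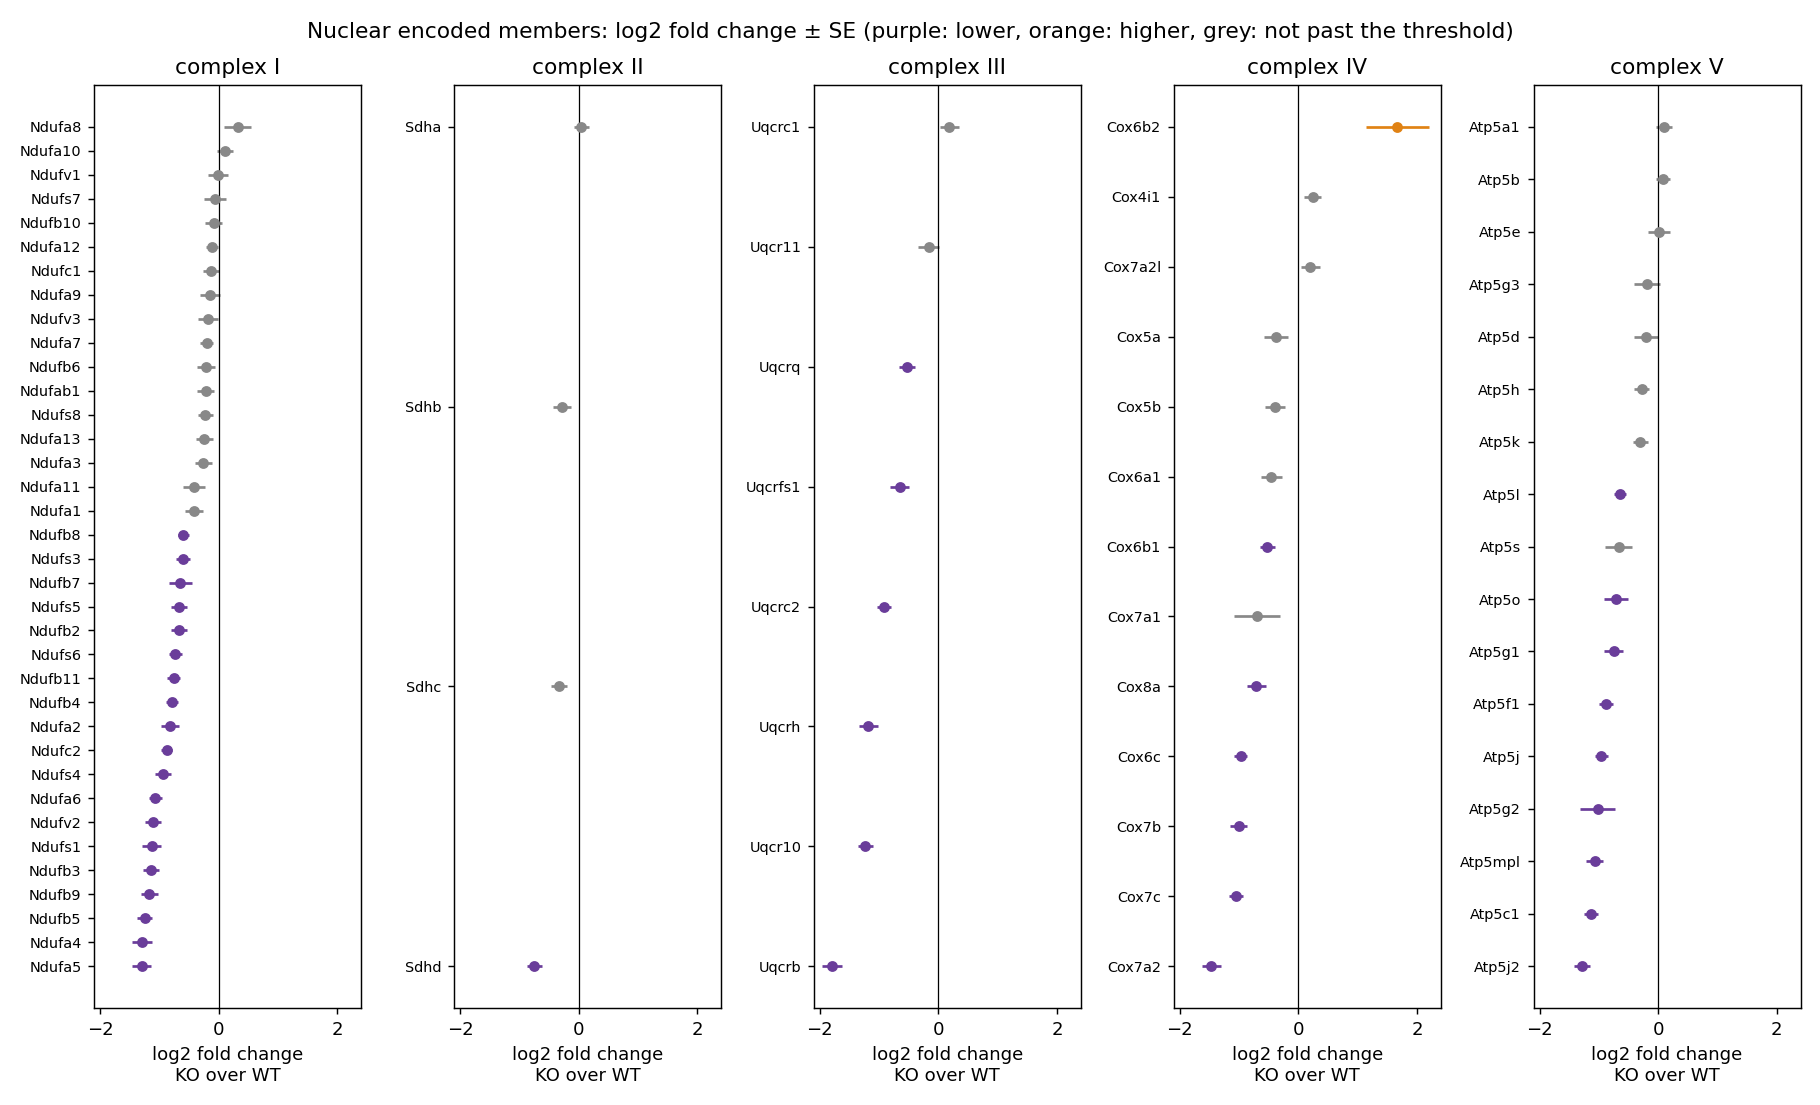
Log2 fold change of knockout over wild type with SE for the nuclear members tested, 1 of them not drawn, in panels by complex; purple points were lower, the orange point higher and grey points did not pass the threshold. Uqcrb at -1.80, Cox7a2 at -1.47 and Ndufa5 at -1.30 lie furthest left, and Cox6b2 at 1.67 is the point furthest right.

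Of the 13 nuclear members of complex IV tested, 6 were lower and 1 higher, beside 19.2% of all genes lower and 19.3% higher. The 6 were small subunits that surround the catalytic core encoded by the mitochondrial genes above. Cox7a2 had 104, 125 and 146 CPM in knockout 1 to 3, against 299, 361 and 376 CPM in wild type 1 to 3. The libraries did not overlap, and the log2 fold change was -1.47 (SE 0.16, edgeR adjusted p = 0.000725). Cox7c, Cox7b, Cox6c, Cox8a and Cox6b1 fell by 1.05, 1.01, 0.97, 0.71 and 0.52 on the log2 scale. Ndufa4, named after complex I but known today as a subunit of complex IV, is counted by its name among the 19 lower members of complex I and not among these 6. It had 90.0, 127 and 132 CPM in knockout libraries, against 256, 292 and 305 CPM in wild-type libraries, at -1.29 (SE 0.16, edgeR adjusted p = 0.00129). Cox4i1, the largest nuclear subunit, had 372, 366 and 406 CPM in knockout 1 to 3, against 391, 277 and 300 CPM in wild type 1 to 3. The genotypes overlapped, and its value of 0.24 (SE 0.15, edgeR adjusted p = 0.225) did not pass, nor did Cox5a at -0.38, Cox5b at -0.40 and Cox6a1 at -0.45. Cox7a2l, known for its part in joining complexes III and IV, was at 0.20 (SE 0.16) and did not pass.

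Tissue isoforms of complex IV stayed a small fraction in both genotypes. Cox6b2, known as the testis form of Cox6b1, was the member called higher: it had 0.722, 1.37 and 1.18 CPM in knockout 1 to 3, against 0.217, 0.337 and 0.464 CPM in wild type 1 to 3. The log2 fold change was 1.67 (SE 0.53, edgeR adjusted p = 0.0408) at a level of about 1 CPM or less, it made up 0.337% to 0.624% of the pair with Cox6b1 in knockout and 0.0589% to 0.157% in wild type, and the call ended with DESeq2, with limma-voom, with the GC trend removed and without any 1 library other than knockout 1. Cox7a1, the heart and muscle form of Cox7a2, was 1.17% to 1.36% of that pair in knockout and 0.614% to 0.871% in wild type, with its own level at -0.70 (SE 0.39) not past the threshold. Cox4i2, a lung form of Cox4i1, was at most 0.0751% of its pair in knockout and 0.223% in wild type.

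The subunits of ATP synthase are given by their place in the enzyme, beside 19.2% of all genes lower, and no difference between these places was tested. In the catalytic F1 head and its stalk 1 of 5 subunits was lower. Atp5b, the catalytic beta subunit, had 1073, 1090 and 1151 CPM in knockout 1 to 3, against 1170, 1005 and 966 CPM in wild type 1 to 3, and the genotypes overlapped at a log2 fold change of 0.08 (SE 0.12, edgeR adjusted p = 0.632). Atp5a1, the alpha subunit, was at 0.09, Atp5d at -0.21 and Atp5e at 0.02, none past the threshold. Atp5c1, the gamma subunit that turns inside the head, had 260, 246 and 301 CPM in knockout libraries, against 560, 647 and 560 CPM in wild-type libraries. Its libraries were far apart, at -1.13 (SE 0.12, edgeR adjusted p = 0.000779).

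Of the 4 peripheral stalk subunits 3 were lower. Atp5j was at -0.96 (SE 0.11), Atp5f1 at -0.88 (SE 0.12) and Atp5o at -0.71 (SE 0.20), with edgeR adjusted p values of 0.000899, 0.00161 and 0.0256, and Atp5h at -0.28 did not pass. Among the small membrane subunits Atp5j2 had 235, 240 and 289 CPM in knockout 1 to 3, against 556, 666 and 637 CPM in wild type 1 to 3. It fell furthest within complex V, at -1.28 (SE 0.13, edgeR adjusted p = 0.000646). Atp5mpl, at -1.07, and Atp5l, at -0.65, were lower too.

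The c-ring is encoded by 3 genes for one protein. Atp5g1 averaged 102 ± 9.56 CPM in knockout and 172 ± 36.4 CPM in wild type, at -0.75 (SE 0.16, edgeR adjusted p = 0.0108), and Atp5g3 was at -0.18 and did not pass. Atp5g2 had 10.3, 7.98 and 4.49 CPM in knockout 1 to 3, against 13.7, 17.8 and 14.7 CPM in wild type 1 to 3, at -1.02 (SE 0.30, edgeR adjusted p = 0.0301). The pseudogene Gm10175, which shares 100% of its words with Atp5g2, held 89.1% to 97.1% of the counts of that pair over the 6 libraries. With it added the value was -0.45 (SE 0.15, edgeR adjusted p = 0.0530), and the call ended. Ndufb4 shared its reads in the same way with the pseudogene Ndufb4c and was at -0.79 as deposited and -0.80 with it added. Over all members, adding such copies left 40 nuclear members lower and 1 higher, Atp5g2 being the one lost.

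Within the nuclear members, those with GC-rich transcripts lay closer to level. Across the 79 members, log2 fold change and GC content of the longest coding transcript had a Pearson's r of 0.37 and a Spearman's rho of 0.37, as a description of points that share the same 6 libraries. Over 13988 genes with a GC value r was 0.18 and rho 0.34. The 13 mitochondrial genes had a median GC content of 37.1%, against 51.0% in the nuclear members, and a lower median fold change, while among themselves r was -0.40 and rho -0.25. Once the GC trend was taken out of every library, 51 nuclear members were lower and none higher, at a median of -0.60, while 16.5% of all genes were lower and 18% higher. The mitochondrial genes moved further: 3 were lower (mt-Nd1, mt-Cytb and mt-Co2), their median was -0.19, and mt-Atp8 was higher at 0.67 (SE 0.14, edgeR adjusted p = 0.0114). Adding copies as well left the same 3 lower and mt-Co2 at -0.48.

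**Figure D5:**
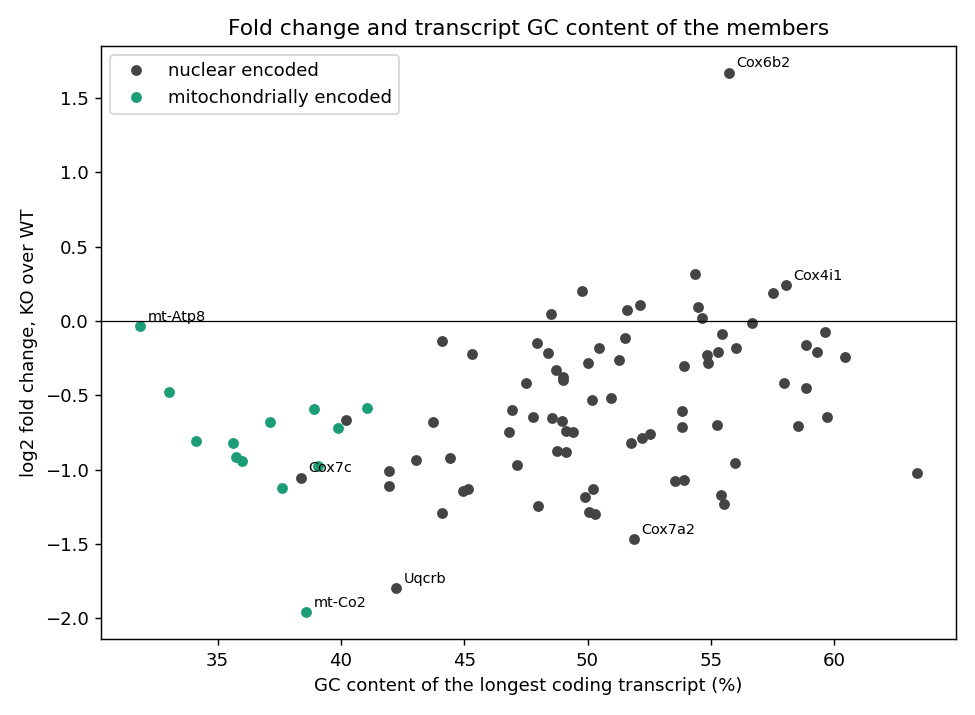
Log2 fold change of knockout over wild type against GC content of the longest coding transcript for the tested members, 1 of them not drawn, with nuclear members in grey and mitochondrial genes in green. The mitochondrial genes lie between 31.9 and 41.1% GC, and among nuclear members Cox4i1, with 58.0% GC, lies above zero while Uqcrb and Cox7c, with 42.2% and 38.4%, lie far below it.

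The scaling of the libraries set where zero lay. With total counts in place of TMM factors the median of all genes was 0.43, 40.9% of all genes were higher and 7.78% lower, 3 mitochondrial genes (mt-Nd1, mt-Cytb and mt-Co2) and 26 nuclear members were lower, and 10 nuclear members were higher, among them Atp5a1, Atp5b, Cox4i1, Sdha and Uqcrc1. Relative to that median of all genes the medians were -0.82 for mitochondrial and -0.62 for nuclear members, as they were with TMM factors. Under each of the 23 alternatives tried, mt-Nd1 and mt-Co2 and 25 nuclear members were lower, among them Uqcrb, Cox7a2, Ndufa5, Ndufb5, Ndufv2, Atp5j2 and Atp5c1. The number of all genes lower under every alternative is not given here, so these counts do not set the chain apart from other genes. Without both libraries numbered 1, 41 nuclear members were lower and 5 higher, while 23.7% of all genes were higher.

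Other genes of mitochondrial metabolism were counted from lists by function, beside 19.2% of all genes lower and 19.3% higher. Cycs, which encodes the cytochrome c that carries electrons between complexes III and IV, averaged 197 ± 28.2 CPM in knockout and 473 ± 65.6 CPM in wild type, at -1.26 (SE 0.15, edgeR adjusted p = 0.00116). It was the only gene lower among the 3 in the list of cytochrome c and the heme of complex III. The other 2 did not pass, and the median of that list was -0.38. In the citric acid cycle 8 of 18 genes were lower and none higher, with Fh1 at -1.11, Sucla2 at -1.06 and Dld at -0.79. Of 78 mitochondrial ribosomal protein genes 33 were lower and 5 higher, with Mrpl42 at -1.48, Mrpl48 at -1.17 and Mrps6 at 0.88. Of the import genes 7 of 20 were lower and 1 higher, the higher being the chaperone gene Hspd1 at 0.55. The medians of the citric acid cycle, ribosomal protein and import lists were -0.35, -0.25 and -0.35, beside 0.02 for all genes.

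Genes that act on the chain's expression and assembly were mixed, and their counts are to be read against the 19.2% of all genes that were lower and the 19.3% that were higher. Among 17 genes of mitochondrial transcription and DNA maintenance 6 were lower and 1 higher, with a list median of -0.50. Polrmt, the mitochondrial RNA polymerase, averaged 14.03 ± 2.82 CPM in knockout and 7.37 ± 1.81 CPM in wild type, at 0.93 (SE 0.24, edgeR adjusted p = 0.0191), while Tfb2m, a factor it needs to start, was at -0.81 and Ssbp1, which coats single-stranded mitochondrial DNA, at -0.995. Among 20 genes of mitochondrial RNA processing 4 were lower, among them Ptcd3 at -0.98, and none was higher, a share near that of all genes, with a list median of -0.03. Complex I assembly factors had 5 of 15 lower and 1 higher, and those of complexes II to V had 7 of 32 lower, with Cox17, a copper carrier of complex IV, at -0.88. The medians of these assembly lists were -0.15 and -0.23, and the share lower among those of complexes II to V was near that of all genes.

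Of 11 regulators of mitochondrial biogenesis tested, 1 was higher and 2 lower, fewer for their number than the 38.4% of all genes called, with a list median of 0.21. Pprc1, a coactivator of the PGC-1 family, averaged 24.3 ± 1.72 CPM in knockout and 9.04 ± 1.08 CPM in wild type, at 1.42 (SE 0.14, edgeR adjusted p = 0.000631). Gabpa, the DNA-binding subunit of the ETS factor named above, was at -0.57 (SE 0.15, edgeR adjusted p = 0.0211). Ppargc1a, the coactivator PGC-1 alpha, was at -0.54 (SE 0.26, edgeR adjusted p = 0.134) and did not pass. Esrrg, a nuclear receptor that is also a parietal cell marker, had 0.127, 0.208 and 0.174 CPM in knockout 1 to 3, against 1.74, 8.27 and 16.5 CPM in wild type 1 to 3. It fell at -5.65 (SE 0.91, edgeR adjusted p = 0.00400). The proton pump gene Atp4b had 0.127, 0.374 and 2.36 CPM in knockout 1 to 3, against 6.41, 143 and 140 CPM in wild type 1 to 3. Wild type 1, with the lowest sum of parietal cell markers in its genotype, was also the wild-type library with the lowest mitochondrial transcripts. Among knockout libraries the order differed: knockout 3 had the highest sum of parietal cell markers, 119 CPM against 112 and 76.0 CPM in knockout 1 and 2, and the lowest mitochondrial transcripts. Knockout 2, with the lowest sum, was not the lowest in mitochondrial transcripts. Atp4a, also of the proton pump, had 0.637 to 2.49 CPM in knockout libraries, so markers other than the pump genes made up most of these sums. Of the 7 parietal cell markers tested, 5 were lower and 1 higher, beside 19.2% of all genes lower and 19.3% higher. The markers thus did not all move the same way. Whether parietal cells account for any of the difference was not tested.

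Among the members 3 are X-linked, Ndufa1, Ndufb11 and Cox7b. Ndufb11 had 78.5, 73.6 and 82.7 CPM in knockout 1 to 3, against 144, 120 and 134 CPM in wild type 1 to 3. It was lower at -0.76 (SE 0.11, edgeR adjusted p = 0.00204), Cox7b was lower at -1.01, and Ndufa1 at -0.42 did not pass. Sex and genotype cannot be told apart in these values.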

How the data were processed

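Poly(A) RNA of antral mucosa was sequenced from strand-marking libraries, per the labels' protocols. The authors deposited 1 table of estimated counts per gene for the 6 libraries. The genome build was mm10, per the submitters' processing notes; the aligner, the counter and their handling of reads from identical copies: not given in the sources used here. Estimated counts were rounded to whole numbers. Genes kept by filterByExpr were tested with the quasi-likelihood test of edgeR 4.0.16 (R 4.3.3, robust fit, TMM factors, genotype as the only term), with Benjamini-Hochberg adjustment over all genes at 0.05. Checks used DESeq2 1.42.0 and limma 3.58.1, other scalings and filters, a GC offset, and libraries left out. The test was also tried on simulated data. Rows were matched to GENCODE M21 for position, length and GC content (34582 of 34866). A row sharing at least 50% of its 31-base words with a member counted as its copy; adding copies was chosen after seeing the data. The members, lists and tests were chosen with earlier results of these data known, and members named beyond the largest changes and fixed roles were chosen after their values were seen. Values of 1 nuclear member are not reported here, although it enters all counts and sums. No library was left out of the main test, and agreement between replicates is limited to 3 libraries a group.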

Additional observations from a re-analysis of the deposited data

How the results depend on the processing

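Of all genes, 5386 passed the threshold, with 2665 at a false discovery rate of 0.01 (1257 higher, 1408 lower) and 3342 to 6009 with 1 library left out (1600 to 3045 higher, 1721 to 2964 lower). Scaling by total counts gave 5730 higher and 1091 lower. The 9 lower mitochondrial genes became 3 with total counts, 5 at 0.01 and 5 to 12 with 1 library left out. They became 3 with the GC trend removed, 2 with GC and the replicate block, and 3 with GC and copies. In these GC fits, in the same order, 2312, 2090 and 2311 of all genes were lower, with 14017, 14017 and 14008 tested. With GC and the block, 2 of 13 was thus near the share of all genes. In each GC fit 1 mitochondrial gene was higher, while 2210 to 2531 of all genes were higher. The 41 lower nuclear members became 26 with total counts. The log2 ratio of mitochondrial to nuclear counts (-0.30) was -0.49 to -0.15 with 1 library left out and -0.60 without both numbered 1. The 1 higher became 10 with total counts, 5 without both libraries numbered 1, 0 to 2 with 1 library left out, and 0 without a filter, with the 1 CPM filter, DESeq2, limma-voom, the replicate block, the 0.01 rate and each GC fit. To look for pairs, each library's deviations from its genotype mean of log2 CPM were correlated across genes between genotypes. Same-numbered libraries gave 0.24, 0.089 and 0.19, and knockout 2 with wild type 3 gave the most (0.26), so the numbers were not taken as pairs. With the replicate block 5069 of all genes passed, 2497 of them lower, and 6 mitochondrial genes and 40 nuclear members were lower.

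No member past the threshold changed sign except mt-Atp6. Among the others, log2 values turned with the GC trend removed for Ndufa10 (-0.024), Cox4i1 (-0.033), Atp5b (-0.039), Uqcrc1 (-0.083), Atp5a1 (-0.11), Atp5e (-0.18), Ndufc1 (0.12), mt-Nd3 (0.25) and mt-Atp8 (0.67), and with the replicate block as well Ndufa10 was -0.018, Cox4i1 -0.032, Atp5b -0.037, Uqcrc1 -0.080, Atp5a1 -0.11, Atp5e -0.16, Ndufc1 0.12, mt-Nd3 0.26 and mt-Atp8 0.65. With copies and GC, mt-Atp6 turned to 0.076, mt-Nd3 and mt-Atp8 were 0.26 and 0.68, Ndufa10 -0.024, Cox4i1 -0.034, Atp5b -0.040, Uqcrc1 -0.083, Atp5a1 -0.11, Atp5e -0.18 and Ndufc1 0.12. Without both libraries numbered 1 the values were 0.079 for Ndufa9, 0.090 for Atp5d, 0.10 for Ndufb10, 0.11 for Uqcr11, 0.16 for Atp5g3 and 0.17 for Ndufv1 and Ndufs7. Ndufv1 was 0.0014 without a filter, 0.0067 with upper-quartile factors, 0.0070 with limma-voom, 0.0076 with the block and 0.40 with total counts. With total counts they were 0.0032 for Ndufa11, 0.021 for Cox5b, 0.041 for Cox5a, 0.088 for Sdhc, 0.12 for Atp5k, 0.14 for Atp5h and Sdhb, 0.16 for Ndufa3, 0.17 for Ndufa13, 0.19 for Ndufs8, 0.20 for Ndufab1 and Ndufb6, 0.21 for Atp5d and Ndufa7, 0.23 for Ndufv3 and Atp5g3, 0.26 for Uqcr11, 0.27 for Ndufa9, 0.29 for Ndufc1, 0.30 for Ndufa12, 0.33 for Ndufb10, 0.35 for Ndufs7 and 0.38 for mt-Atp8. With 1 library left out, ranges were -0.13 to 0.18 for Ndufv1, -0.097 to 0.26 for Atp5e, -0.053 to 0.11 for Sdha, -0.24 to 0.21 for mt-Atp8, -0.27 to 0.016 for Ndufa9, -0.29 to 0.017 for Ndufv3, -0.27 to 0.048 for Uqcr11, -0.35 to 0.049 for Atp5d, -0.17 to 0.053 for Ndufb10, -0.34 to 0.083 for Atp5g3, -0.20 to 0.16 for Ndufs7 and -0.019 to 0.21 for Ndufa10. Apart from fewer libraries or genes in a fit, the cause was not tested.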
